A study of Mus musculus with 16 samples.

Results

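The scavenger receptors that are commonly used to describe brain perivascular macrophages were followed in mouse cerebral cortex after intraperitoneal lipopolysaccharide (LPS), a component of the outer membrane of Gram-negative bacteria. The 9 genes were chosen by name (*Marco*, *Msr1*, *Stab1*, *Cd163*, *Mrc1*, *Lyve1*, *Cd36*, *Scarb1* and *Colec12*) and all were found by symbol among the 55487 genes of the table. The 16 samples were cortices of male wild-type C57Bl6 mice aged 2 months, each given 2 injections on consecutive days, either LPS at 2 mg/kg or phosphate-buffered saline (PBS), and killed the day after the second. Injections were given at zeitgeber time (ZT) 1, an hour after lights on, in 3 PBS and 5 LPS mice, or at ZT13, an hour after lights off, in 3 PBS and 5 LPS mice. Because tissue was taken at the hour of injection, the clock time of injection and that of collection cannot be told apart. Values are CPM, the reads of a gene scaled so that all genes of a sample sum to 1000000, and the smallest steps in each column correspond to 20251840 to 29112758 reads on genes per sample. The treatment field of the sample records contradicted the sample title for 12 of the 16 samples, and groups were taken from the titles. *Gfap*, an astrocyte gene that rises in neuroinflammation, ran from 111 to 123 CPM over the 6 PBS titles and from 572 to 1134 CPM over the 10 LPS titles.

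Perivascular macrophages lie between the vessel wall and the astrocyte endfeet, where they sample material from blood and cerebrospinal fluid. Scavenger receptors bind a wide range of polyanionic or modified ligands, among them bacterial surface molecules, oxidized lipoproteins, glycans and complexes of haemoglobin, and deliver them for degradation. None of the genes is particular to these macrophages: *Stab1*, *Lyve1*, *Scarb1*, *Cd36* and *Colec12* are also known from endothelial cells, and *Marco* and *Msr1* from other macrophages and myeloid cells. The samples were pieces of whole tissue, so more cells of a type and more RNA per cell cannot be told apart.

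LPS raised 4 of the 8 tested receptor genes at ZT1 (*Marco*, *Msr1*, *Stab1* and *Cd163*) and 5 of 8 at ZT13 (the same 4 and, by a small margin, *Scarb1*), and lowered none at either time. A gene was called when its adjusted p was under 0.05 in limma's moderated test on log2(CPM + 0.5) with Benjamini-Hochberg adjustment over the 18859 genes that reached 1 CPM in 3 or more samples. By the same rule 11.1% of all tested genes were called higher and 5.15% lower at ZT1, and 19.2% higher and 9.4% lower at ZT13. *Cd36* was under the limit on low values and was not tested with the others, and *Marco*, *Msr1* and *Lyve1* passed it only through LPS mice, so that a higher value after LPS was a condition of their being tested. The median log2 fold change of the 8 tested receptors was 0.81 at ZT1 and 0.72 at ZT13, whatever value *Marco* is given above the others. *Mrc1*, *Lyve1* and *Colec12* did not pass at either time.

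**Figure D1:**
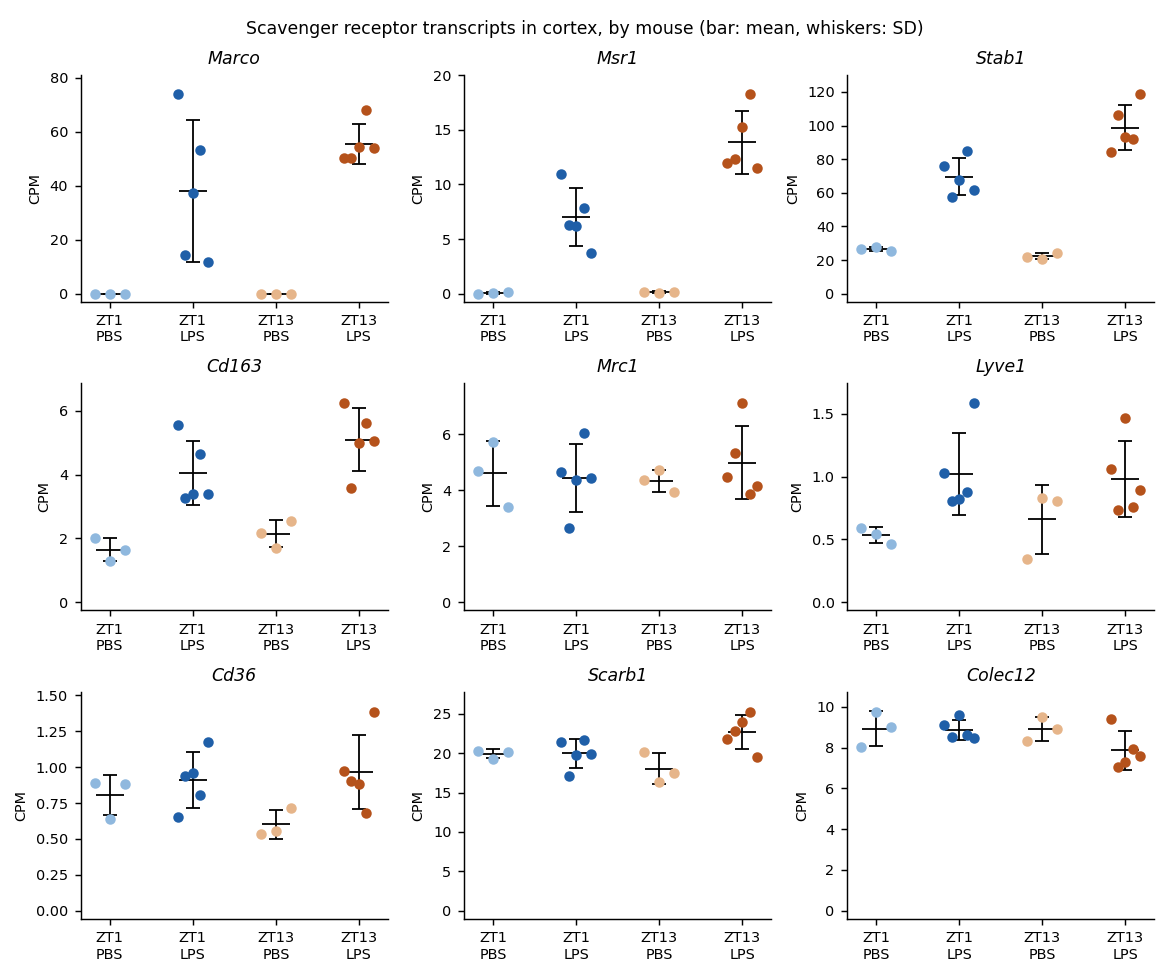
CPM of each scavenger receptor gene (vertical axes, linear, a separate scale for each gene) in the 4 groups, with a point per mouse, a bar at the mean and whiskers for the SD. *Marco* was at 0 in the 6 PBS mice and at 11.6 to 73.8 CPM in the 10 LPS mice, whereas the *Mrc1* values of PBS and LPS mice lay in the same range.

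The class A receptors are trimeric proteins with a collagen-like stalk that bind bacterial surface components and polyanions. Of these *Marco* and *Msr1* had the highest fold changes of the receptors, and *Colec12* was not called. *Marco* (macrophage receptor with collagenous structure; ENSMUSG00000026390, GRCm38 chromosome 1 from 120474538 to 120505024, minus strand) had no reads in any of the 6 PBS mice. In the LPS mice at ZT1 it was at 73.8, 14.5, 37.2, 53.2 and 11.6 CPM, a mean of 38.0 ± 26.3 CPM (SD, n = 5). At ZT13 the 5 LPS mice were at 50.4, 50.4, 54.3, 68.1 and 54.1 CPM, a mean of 55.5 ± 7.32 CPM (SD, n = 5). Replicates 2 and 5 at ZT1 stood well under the rest, while the ZT13 mice lay close together. Set against 3 reads in the PBS library where 3 reads are worth most, the group mean was at least 257-fold higher at ZT1 and at least 400-fold higher at ZT13. Leaving out each mouse in turn moved these bounds over 196 to 302 and 377 to 413, the lowest at ZT1 without LPS replicate 1. The limma test gave adjusted p = 1.8e-05 at ZT1 and 2.5e-14 at ZT13.

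*Msr1* (macrophage scavenger receptor 1, class A; ENSMUSG00000025044, GRCm38 chromosome 8 from 39581685 to 39642673, minus strand) was barely detected without LPS. The PBS mice held 0, 2 and 4 reads at ZT1 and 5, 2 and 4 reads at ZT13, corresponding to at most 0.190 CPM. The LPS mice were at 10.9, 6.31, 6.22, 7.84 and 3.76 CPM at ZT1 and at 11.9, 12.3, 15.3, 18.2 and 11.5 CPM at ZT13. Every LPS mouse was therefore far above every PBS mouse, and the lowest LPS mouse at ZT13 was above the highest at ZT1. From the summed reads the ratio of LPS to PBS was 74.9 at ZT1 (exact 95% interval 34.3 to 204.5) and 89.4 at ZT13 (49.8 to 179.5), intervals that cover counting error alone. On the log2(CPM + 0.5) scale, which understates the change of a gene this low, the difference was 3.61 ± 0.26 (SE) at ZT1 and 4.44 ± 0.15 (SE) at ZT13, with limma adjusted p = 5.8e-06 and 1.8e-10.

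*Colec12* (collectin-12, a class A receptor with a lectin domain that binds glycans and oxidized lipoproteins; ENSMUSG00000036103) did not follow the other class A genes. It was at 8.04 to 9.78 CPM in the PBS mice and 8.47 to 9.62 CPM in the LPS mice at ZT1, and at 8.31 to 9.53 against 7.05 to 9.43 CPM at ZT13. The ranges overlapped at both times, and the log2 difference was -0.01 (95% interval -0.20 to 0.18) at ZT1 and -0.18 (95% interval -0.39 to 0.04) at ZT13. With quantile normalization the ZT13 difference became -0.36 and passed the test as a fall (limma adjusted p = 0.014).

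*Stab1* (stabilin-1, a multidomain receptor that clears acetylated low-density lipoprotein and extracellular SPARC; ENSMUSG00000042286, GRCm38 chromosome 14 from 31139013 to 31168641, minus strand) had the highest level per kilobase of the receptors in PBS mice, overlapping *Scarb1* at ZT13. It was at 26.4, 27.8 and 25.3 CPM in the PBS mice at ZT1 and at 22.0, 20.6 and 24.4 CPM at ZT13. The LPS mice were at 76.2, 57.4, 67.4, 84.8 and 61.8 CPM at ZT1 and at 84.0, 106, 93.4, 92.0 and 118 CPM at ZT13, so that PBS and LPS values did not overlap at either time. The increase was 2.57-fold at ZT1 (log2 difference 1.36 ± 0.11 SE, limma adjusted p = 1.1e-05) and 4.33-fold at ZT13 (2.11 ± 0.09 SE, adjusted p = 1.5e-09). Its exons share 112 bases with *Nt5dc2* on the opposite strand, a gene at no more than 6.97 CPM in any sample, and whether the counting used strand is not given in the sources used here.

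*Cd163*, the class I receptor with scavenger receptor cysteine-rich domains that takes up haptoglobin-haemoglobin complexes (ENSMUSG00000008845, GRCm38 chromosome 6 from 124304656 to 124330527, plus strand), rose at both times. The PBS mice were at 2.02, 1.28 and 1.64 CPM at ZT1 and 2.16, 1.71 and 2.55 CPM at ZT13. The LPS mice were at 5.55, 3.27, 3.40, 4.66 and 3.40 CPM at ZT1 and at 6.24, 3.57, 4.99, 5.61 and 5.06 CPM at ZT13, all above the PBS mice of the same time. On the log2(CPM + 0.5) scale the fold was 2.10 at ZT1 (limma adjusted p = 0.0026) and 2.11 at ZT13 (adjusted p = 0.00020). The ratio of mean CPM, without the pseudocount, was 2.46 at ZT1 and 2.38 at ZT13. Of 5 tested genes of haemoglobin and haem clearance, 2 rose at ZT1 and 3 at ZT13, and none fell, beside 11.1% and 19.2% of all tested genes called higher. *Hp* was under 1 CPM in all PBS mice and was tested because it was higher after LPS, and a sixth gene, *Hpx*, was under the limit on low values. *Hp*, which encodes haptoglobin, rose from a mean of 0.256 to 4.92 CPM at ZT1 and from 0.201 to 14.04 CPM at ZT13. *Hmox1*, the enzyme that opens the haem ring, rose by 1.20 log2 units at ZT1 and 1.71 at ZT13, and *Blvrb*, a biliverdin reductase, by 0.46 at ZT13 (0.22 at ZT1, limma adjusted p = 0.45). A difference between the times was not called for these genes (interaction adjusted p = 0.33, 0.65 and 0.79).

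*Mrc1*, the mannose receptor (CD206) by which perivascular macrophages are often identified (ENSMUSG00000026712, GRCm38 chromosome 2 from 14229392 to 14332057, plus strand), showed no detectable change. The PBS mice were at 4.68, 5.73 and 3.41 CPM and the LPS mice at 4.66, 2.64, 4.36, 6.06 and 4.44 CPM at ZT1. At ZT13 the PBS mice were at 4.36, 4.72 and 3.94 CPM and the LPS mice at 4.47, 5.33, 7.13, 3.87 and 4.16 CPM. Groups overlapped at both times. The log2 difference was -0.06 at ZT1 (95% interval -0.54 to 0.41) and 0.15 at ZT13 (95% interval -0.20 to 0.51), so a change the size of that of *Cd163* lay outside both intervals. *Lyve1*, a hyaluronan receptor of lymphatic vessels and of perivascular macrophages along larger vessels (ENSMUSG00000030787, GRCm38 chromosome 7 from 110850607 to 110863239, minus strand), was low throughout. It was at 0.463 to 0.592 CPM in the PBS mice and 0.806 to 1.59 CPM in the LPS mice at ZT1, without overlap, and at 0.342 to 0.833 against 0.731 to 1.47 CPM at ZT13, with overlap. The differences of 0.54 ± 0.19 and 0.36 ± 0.21 log2 units (SE) did not pass (limma adjusted p = 0.078 and 0.24). The pseudocount makes these differences smaller for a gene this low, and the ratio of mean CPM was 1.92 at ZT1 and 1.49 at ZT13.

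The class B receptors take up lipids. *Scarb1*, the receptor for high-density lipoprotein (ENSMUSG00000037936, GRCm38 chromosome 5 from 125277087 to 125341094, minus strand), was at 20.3, 19.3 and 20.2 CPM in the PBS mice and 21.4, 17.1, 19.8, 21.7 and 19.8 CPM in the LPS mice at ZT1. At ZT13 it was at 20.2, 16.4 and 17.5 CPM in the PBS mice and 21.7, 22.9, 23.9, 25.3 and 19.6 CPM in the LPS mice, of which the last was below the highest PBS mouse. The ZT13 difference of 0.32 ± 0.09 log2 units (SE), a fold of 1.25, passed the test (limma adjusted p = 0.012). It did not pass when all genes with reads were tested (adjusted p = 0.090), with quantile normalization (0.062), or without ZT13 PBS replicate 2 (0.074) or 3 (0.051). *Cd36*, a fatty acid translocase and receptor for oxidized low-density lipoprotein (ENSMUSG00000002944, GRCm38 chromosome 5 from 17781690 to 17888801, minus strand), was at 0.642 to 0.888 CPM in the PBS mice and 0.653 to 1.18 CPM in the LPS mice at ZT1, and at 0.531 to 0.717 against 0.682 to 1.39 CPM at ZT13. Its groups overlapped at both times. In a limma fit of all 38565 genes with any reads the log2 difference was 0.10 at ZT1 and 0.40 at ZT13 (adjusted p = 0.75 and 0.18).

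**Figure D2:**
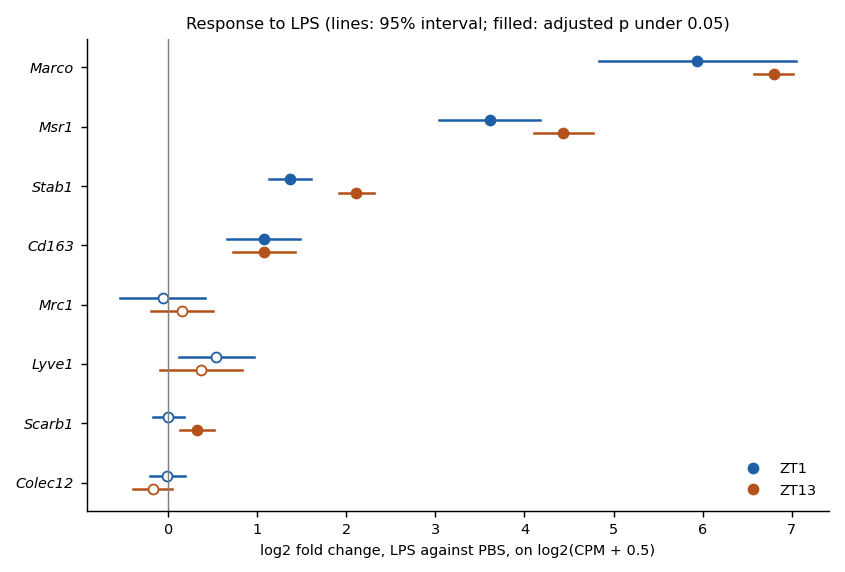
Log2 fold change of LPS against PBS on the log2(CPM + 0.5) scale (horizontal axis) for the 8 tested receptor genes at ZT1 and at ZT13, with 95% intervals, filled where the limma adjusted p was under 0.05. The points of *Marco*, *Msr1*, *Stab1* and *Cd163* are filled at both times and that of *Scarb1* at ZT13, with *Marco* at 5.94 and 6.80.

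The receptors were also compared with each other within each sample, as the difference of log2(CPM + 0.5) between a gene and *Mrc1*. The 8 ratios were chosen after seeing the data, and treatment labels were exchanged among the mice of each time in all 3136 ways (two-sided exact permutation test, p not adjusted). Averaged over both times, the ratio to *Mrc1* rose by 6.32 log2 units for *Marco*, 3.98 for *Msr1* and 1.69 for *Stab1*, each with p = 0.000319, the smallest that the exact test allows. PBS and LPS mice did not overlap in these 3 genes, and *Mrc1* showed no detectable change. Their p therefore follows from the LPS responses given above and is no separate support for them. The values for *Marco*, which had no reads in PBS mice, and *Msr1* are set by the pseudocount and are no bounds: with a pseudocount of 1 or 0.1 they were 5.35 and 8.62 for *Marco* and 3.20 and 5.47 for *Msr1*. The ratio rose by 1.03 for *Cd163* (exact p = 0.000638). The changes were 0.41 for *Lyve1* (exact p = 0.044), 0.21 for *Cd36* (0.35), 0.11 for *Scarb1* (0.45) and -0.14 for *Colec12* (0.47). The change for *Lyve1* was 0.62 with a pseudocount of 0.1 and 0.28 with one of 1, where exact p was 0.088, and in 9 of the 16 tests that left out a mouse exact p was 0.056 to 0.127, the highest without ZT13 PBS replicate 1.

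Levels of different genes were compared per kilobase of exon. In PBS mice the order at ZT1 was *Stab1* (2.58 CPM per kilobase), *Scarb1* (2.35), *Colec12* (1.03), *Mrc1* (0.723), *Cd163* (0.302), *Cd36* (0.224), *Lyve1* (0.182), *Msr1* (0.0140) and *Marco* (0). Ranges of neighbouring genes overlapped from *Cd163* to *Cd36*, from *Cd36* to *Lyve1* and from *Msr1* to *Marco*. In LPS mice at ZT13 *Marco* was first (28.8 CPM per kilobase), followed by *Stab1* (9.60), *Scarb1* (2.67), *Msr1* (2.18), *Cd163* (0.933), *Colec12* (0.902), *Mrc1* (0.784), *Lyve1* (0.337) and *Cd36* (0.269). There *Marco*, *Stab1* and *Scarb1* did not overlap, while *Scarb1* overlapped *Msr1*, *Cd163* overlapped *Colec12*, *Colec12* overlapped *Mrc1*, and *Lyve1* overlapped *Cd36*. At ZT1 after LPS the ranges of *Marco* (6.003 to 38.4 CPM per kilobase) and *Stab1* (5.58 to 8.25) overlapped.

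**Figure D3:**
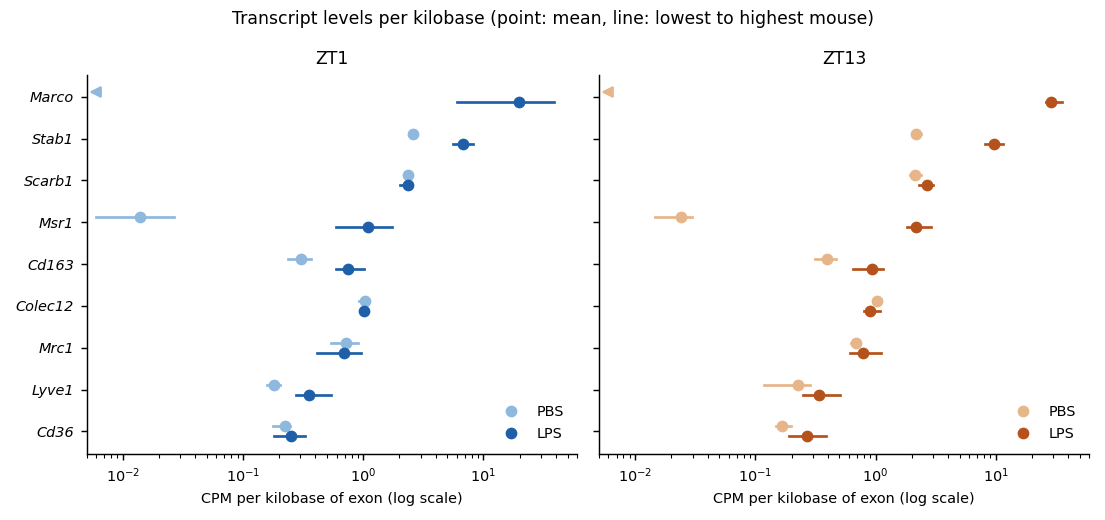
Level of each receptor gene in CPM per kilobase of exon (horizontal axis, log scale) at ZT1 and ZT13, with a point at the group mean and a line from the lowest to the highest mouse, and an arrowhead at the left edge where all mice were at 0. *Marco* goes from 0 in PBS mice to 19.8 and 28.8 CPM per kilobase in LPS mice, the first place in both LPS groups.

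The time of injection was then compared among LPS mice, the question on which the study turns. Means were higher at ZT13 for 6 of the 8 tested receptors by the fitted difference, but limma called none of them (3 had an unadjusted p under 0.05), against 0.0212% of all tested genes called in either direction. *Msr1* was nearest in size, at 13.8 ± 2.87 CPM at ZT13 against 7.01 ± 2.63 CPM at ZT1 (SD, n = 5 each), a log2 difference of 0.98 ± 0.21 (SE, limma adjusted p = 0.10). *Stab1* was at 98.8 ± 13.6 against 69.5 ± 11.1 CPM (SD, n = 5 each), a log2 difference of 0.51 ± 0.11 (SE, adjusted p = 0.099), with 1 ZT1 mouse at 84.8 CPM above the lowest ZT13 mouse at 84.0 CPM. Both genes passed in a single fit of all 16 samples (adjusted p = 0.033 and 0.031), with sample quality weights (0.021 and 0.036) and without ZT1 LPS replicate 1 (0.013 and 0.031). Over the 10 alternative fits that kept all mice, adjusted p ran from 0.021 to 0.39 for *Msr1* and from 0.031 to 0.39 for *Stab1*. The paper names *Stab1* among the genes higher at ZT13 than at ZT1 after LPS, by its own test at an adjusted p under 0.05. Its list was far longer than the 4 genes that the main fit called here, and its test was not repeated. *Marco* differed by 0.86 ± 0.40 log2 units (SE, adjusted p = 0.48), *Cd163* by 0.30, *Scarb1* by 0.18, *Mrc1* by 0.16, *Lyve1* by -0.04 and *Colec12* by -0.17 (adjusted p from 0.43 to 0.97). *Cd36* was at 0.908 CPM at ZT1 and 0.966 CPM at ZT13 on average after LPS.

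In PBS mice none of the receptors passed limma's test between ZT13 and ZT1 (1 had an unadjusted p under 0.05), against 0.52% of all tested genes, and *Marco* was at 0 in both groups. *Stab1* was lower at ZT13 in each mouse (20.6 to 24.4 against 25.3 to 27.8 CPM), a log2 difference of -0.24 ± 0.07 (SE, limma adjusted p = 0.19). The interaction, the LPS response at ZT13 minus that at ZT1 in a fit of all 16 samples, was called by limma for none of the receptors (3 had an unadjusted p under 0.05) and for 0.159% of all tested genes. It was 0.75 ± 0.16 for *Stab1* (SE, adjusted p = 0.077), 0.83 ± 0.32 for *Msr1* (adjusted p = 0.40), 0.86 ± 0.57 for *Marco* (adjusted p = 0.71), 0.33 ± 0.12 for *Scarb1* (adjusted p = 0.40) and 0.00 ± 0.26 for *Cd163* (adjusted p = 1.0). For *Stab1* it passed with sample quality weights (adjusted p = 0.024) and without ZT1 LPS replicate 1 (0.031), ZT1 LPS replicate 4 (0.023) or ZT13 LPS replicate 1 (0.043). With limma 1998 genes in the comparison among LPS mice, 2543 among PBS mice and 1745 in the interaction had an unadjusted p under 0.05.

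**Figure D4:**
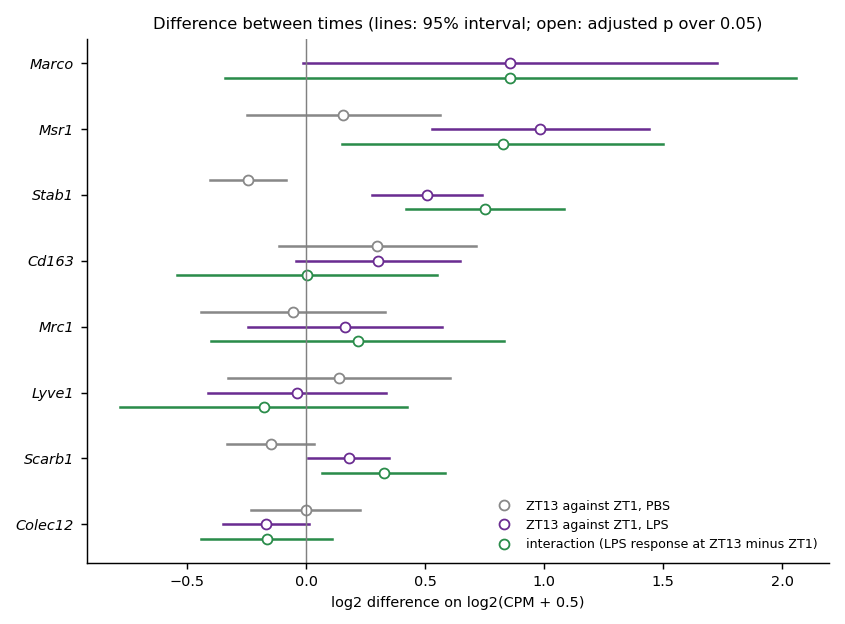
Log2 difference on the log2(CPM + 0.5) scale (horizontal axis) between ZT13 and ZT1 in PBS mice, between ZT13 and ZT1 in LPS mice, and their difference (the interaction), for the 8 tested receptor genes with 95% intervals; *Marco* has no PBS value, being at 0 in all PBS mice. All points are open, since none had an adjusted p under 0.05, and *Msr1* (0.98) and *Stab1* (0.51) lie to the right of 0 with their intervals in LPS mice.

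The mice of the ZT1 LPS group differed widely in *Marco*, and sums of other marker lists are given beside it. The summed CPM of 9 neutrophil markers in ZT1 LPS replicates 1 to 5 was 60.4, 14.6, 26.2, 48.3 and 14.4, beside *Marco* at 73.8, 14.5, 37.2, 53.2 and 11.6 CPM. The mice with the highest and lowest *Marco* were those with the highest and lowest neutrophil sums, the lowest by only 14.4 against 14.6 CPM. Most other lists had a similar order, so it was not particular to neutrophil markers. The sum of perivascular macrophage markers in the same mice was 53.4, 22.8, 40.6, 49.4 and 33.4 CPM. The monocyte sum was 51.9, 33.9, 37.1, 46.6 and 36.4 CPM. Both were highest in replicate 1 and lowest in replicates 2 and 5. The blood endothelial sum in the same mice was 346, 267, 315, 355 and 285 CPM, also lowest in replicates 2 and 5. The haemoglobin and haem clearance sum was 123.4, 105.7, 114.5, 118.9 and 101.1 CPM, which ranked the mice as *Marco* did. Lymphatic endothelial, mural cell and fibroblast sums were also highest in replicate 1 and lowest in replicates 2 and 5. Sums of the other scavenger receptors, erythrocyte genes and neuronal genes did not have this order. The microglia sum was 315, 221, 311, 364 and 340 CPM, second highest in the mouse with the lowest *Marco*. At ZT13 the neutrophil sum was 73.9, 63.6, 107, 107 and 43.2 CPM, beside *Marco* at 50.4, 50.4, 54.3, 68.1 and 54.1 CPM, so that the mouse with the lowest neutrophil sum had neither the lowest nor the highest *Marco*. In PBS mice the neutrophil sum was 0.971 to 2.19 CPM. Whether the cells of these lists had a part in these receptor values was not tested.

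The label was set against other markers of perivascular macrophages, and most of them were too low in whole cortex to be tested. Of 11 listed markers 4 passed the limit on low values, of which 4 rose at ZT1 and 3 at ZT13, beside 11.1% and 19.2% of all tested genes. Among these *Cbr2* was under 1 CPM in all PBS mice and *Siglec1* in all but 1, so both were tested because they were higher after LPS. *Siglec1* (CD169, a sialic acid receptor) rose from 0.629 to 13.003 CPM at ZT1 and from 0.739 to 22.6 CPM at ZT13, and *F13a1* (a coagulation factor subunit made by macrophages) from 2.02 to 8.42 and from 2.86 to 14.5 CPM. *Dab2*, an endocytic adaptor, rose by 0.69 log2 units at ZT1 and 1.11 at ZT13. The summed CPM of the 11 markers was 10.9 to 19.6 in PBS mice and 22.8 to 53.4 in LPS mice at ZT1, and 13.2 to 14.9 against 54.1 to 66.9 at ZT13, with *Mgl2* and *Timd4* at or under 3 reads in at least 1 of the LPS groups. In the fit of all genes with any reads the defining chemokine gene *Pf4* changed by -0.39 at ZT1 (limma adjusted p = 0.53) and 0.62 at ZT13 (adjusted p = 0.064), and the folate receptor gene *Folr2* by 0.62 (adjusted p = 0.45) and 0.60 (adjusted p = 0.060). In that fit *Ms4a7* and *Cd209f* passed at ZT13, at 0.77 and 0.59 (adjusted p = 0.010 and 0.030). *Mgl2* passed as lower at ZT1 (adjusted p = 0.0016), at 0.0986 to 0.148 CPM in the PBS mice and 0 in the 5 LPS mice, with both group means at or under 3 reads. Over the 11 markers the fitted differences at ZT13 ran from -0.23 (*Mgl2*) to 4.24 (*Siglec1*), and the receptor values could not be assigned to this cell type.

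Markers of other cells that could carry these receptors moved with LPS as well, and their part in the receptor values was not tested. Of all tested genes 11.1% were called higher and 5.15% lower at ZT1, and 19.2% higher and 9.4% lower at ZT13. Monocyte markers rose in 6 of 6 genes at both times, with *Chil3* at a log2 difference of 4.87 and *Ccr2* at 1.88 at ZT13, and with a summed CPM of 26.3 to 29.6 in PBS mice, 33.9 to 51.9 in LPS mice at ZT1 and 50.6 to 72.8 at ZT13. *Plac8* and *Chil3* were at or under 3 reads on average in both PBS groups. Neutrophil markers rose in 5 of 6 tested genes at ZT1 and 6 of 6 at ZT13, led by *S100a9* (5.63), *S100a8* (4.57) and *Mmp8* (4.04). Of the tested genes, 5 of the 6 monocyte and 5 of the 6 neutrophil markers were under 1 CPM in all PBS mice, and their fitted values depend on the pseudocount. Microglia markers split, with 5 of 9 higher and 2 lower at ZT1, and 5 higher and 4 lower at ZT13, the largest falls being *Siglech* (-2.43), *Gpr34* (-1.25) and *Fcrls* (-1.24). Their summed CPM was 214 to 239 in PBS mice, 221 to 364 in LPS mice at ZT1 and 258 to 311 at ZT13. Blood endothelial markers, set beside *Stab1* and *Scarb1*, rose in 5 of 8 genes and fell in 1 at ZT1, and rose in 8 of 8 at ZT13, with *Cldn5* at 2.24, *Pecam1* at 2.23 and *Emcn* at 1.66 at ZT13. Their summed CPM was 211 to 216 in PBS and 267 to 355 in LPS mice at ZT1, and 177 to 216 against 346 to 391 at ZT13. For 5 of these 8 genes the interaction was called, against 0.159% of all tested genes, all with the larger LPS response at ZT13. Between the times in PBS mice 1 of the 8 was higher and 3 were lower at ZT13, against 0.52% of all tested genes called in either direction. Lymphatic endothelial markers rose in 2 of 3 genes at both times (*Flt4* by 1.72 and *Pdpn* by 1.26 at ZT13), while *Prox1* differed by 0.17 (limma adjusted p = 0.12).

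The same shares of all tested genes, 11.1% higher and 5.15% lower at ZT1 and 19.2% and 9.4% at ZT13, stand beside the next counts. In lists this short several counts are not far from these shares. Fibroblast and leptomeningeal markers rose in 2 of 7 genes at ZT1 and in 4 at ZT13, where 1 fell, with *Dcn* at 2.13, *Col3a1* at 1.45 and *Igfbp2* at -0.62. Mural cell markers rose in 2 of 7 genes at ZT1 and 3 at ZT13 (*Kcnj8* by 0.64, *Pdgfrb* by 0.44 and *Abcc9* by 0.35), and none fell. None of 5 erythrocyte genes was called by limma at either time (0 had an unadjusted p under 0.05), with *Hba-a2*, *Hbb-bt* and *Hba-a1* at 0.30, -0.23 and 0.13 at ZT13 (limma adjusted p from 0.68 to 0.86). Among 7 neuronal genes 1 fell at ZT1 and 3 at ZT13, the largest value being -0.33 for *Neurod6*, beside -0.18 for *Slc17a7*, which also fell, and -0.11 for *Gad2* (adjusted p = 0.13). Of 13 tested scavenger receptors outside the list of 9, 5 rose at ZT1 and 8 at ZT13, and none fell. *Cxcl16*, a membrane-bound chemokine that binds phosphatidylserine and oxidized lipoprotein, rose by 1.97 at ZT1 and 2.58 at ZT13. *Cd44*, a hyaluronan receptor, rose by 0.77 and 1.82, and *Cd68*, a lysosomal glycoprotein of phagocytes, by 1.30 and 1.49. The median log2 difference of these 13 was 0.44 at ZT1 and 0.70 at ZT13. No gene of any of these lists was called by limma between ZT13 and ZT1 in LPS mice, against 0.0212% of all tested genes. Limma's unadjusted p was under 0.05 for 5 of 6 neutrophil, 5 of 8 blood endothelial and 4 of 6 monocyte markers. The same held for 3 of 4 perivascular macrophage markers, 4 of 13 other scavenger receptors and 3 of 9 microglia markers. Counts were 2 of 5 haem clearance, 2 of 3 lymphatic, 1 of 7 fibroblast, 1 of 7 mural, 1 of 7 neuronal and 0 of 5 erythrocyte genes. Over all 18859 tested genes it was 1998. By its own test the paper names the neutrophil marker *Mmp8* as higher at ZT13.

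**Figure D5:**
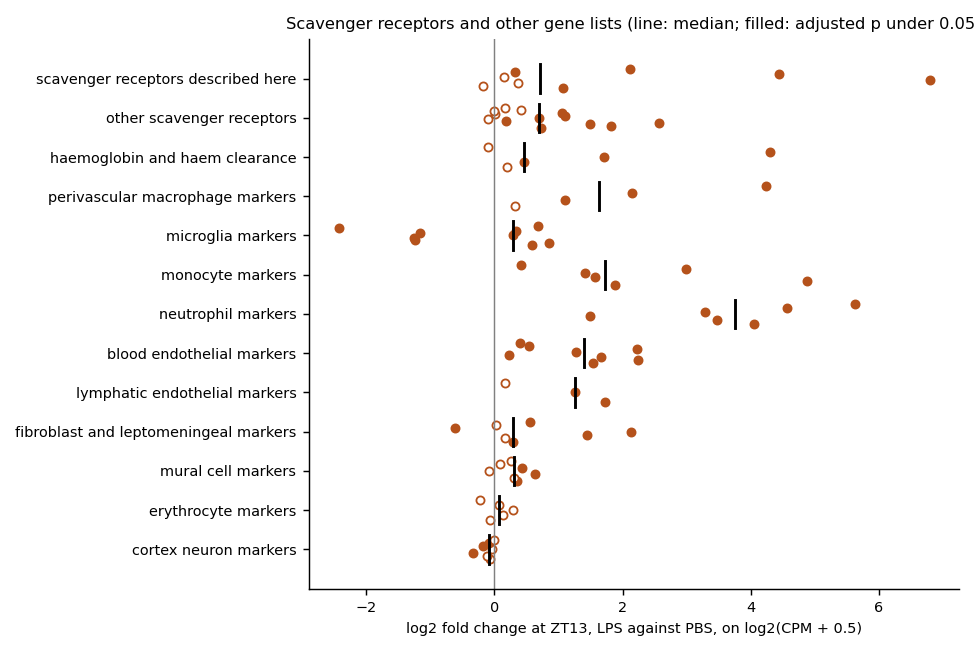
Log2 fold change of LPS against PBS at ZT13 on the log2(CPM + 0.5) scale (horizontal axis) for the tested genes of each list (rows), a point per gene, filled where the limma adjusted p was under 0.05, with a vertical line at the list's median. The scavenger receptors spread from -0.18 (*Colec12*) to 6.80 (*Marco*), and the monocyte and neutrophil lists lie wholly to the right of 0.

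For each receptor the genes with the most similar pattern were taken as those with the smallest mean absolute difference in centred log2(CPM + 0.5) over the 16 samples, a measure that includes the size of the change. *Marco* was nearest to *C3* (0.42), *Serpina3n* (0.53) and *Ccl5* (0.67). *Msr1* was nearest to *Timp1* (0.17), *Cybb* (0.23) and *Ms4a6c* (0.25). The genes nearest to *Stab1* were *Igfbp7* (0.11), *Pecam1* (0.11) and *Col4a1* (0.12), genes of vessel walls, and those nearest to *Cd163* were *Irak4* (0.13), *Abhd15* (0.13) and *Prkch* (0.15). By this measure a receptor that changed little must lie nearest to genes that also changed little. *Mrc1* was nearest to *Sdhaf3*, *H1f2* and *Car8* (0.15 each), and *Colec12* to *Pnpla8*, *Ppp1r14c* and *Armc1* (0.06 each). *Scarb1*, called higher at ZT13 by a small margin, was nearest to *Capn1*, *Rcbtb2* and *Acsl5* (0.05 to 0.06). *Lyve1*, whose change this scale understates at its low values, was nearest to *Acy3*, *Fam89b* and *Crym* (0.14 to 0.15). These are descriptions over samples that share treatment and libraries.

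Promoter sequences (250 bases before to 50 after the transcription start, RefSeq, GRCm38.p6) matched 5 of the 9 receptors, namely *Marco*, *Stab1*, *Cd163*, *Mrc1* and *Cd36*. *Msr1*, which rose at both times, had no match. The windows of *Marco*, *Stab1* and *Cd163*, which also rose at both times, and of *Mrc1*, which did not pass, are shown. They are given 5′ to 3′ on the strand of the gene, so that windows of genes with unlike responses can be read side by side. They lie at chr1:120504975-120505274 (minus strand), chr14:31168592-31168891 (minus), chr6:124304401-124304700 (plus) and chr2:14229164-14229463 (plus) in the same order. Capitals mark matches on either strand to 6 motifs searched: the E-box CACGTG, the ROR element AGGTCA, the PU.1 core GAGGAA, the AP-1 site TGANTCA, the STAT site TTCNNNGAA and TGTTCT, a part of the glucocorticoid receptor element.
Marco: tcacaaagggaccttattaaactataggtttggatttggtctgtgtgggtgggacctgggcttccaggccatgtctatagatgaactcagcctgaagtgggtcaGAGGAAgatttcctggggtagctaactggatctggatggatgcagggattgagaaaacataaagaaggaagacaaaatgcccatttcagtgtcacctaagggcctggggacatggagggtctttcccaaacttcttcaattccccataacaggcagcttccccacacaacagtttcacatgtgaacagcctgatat
Stab1: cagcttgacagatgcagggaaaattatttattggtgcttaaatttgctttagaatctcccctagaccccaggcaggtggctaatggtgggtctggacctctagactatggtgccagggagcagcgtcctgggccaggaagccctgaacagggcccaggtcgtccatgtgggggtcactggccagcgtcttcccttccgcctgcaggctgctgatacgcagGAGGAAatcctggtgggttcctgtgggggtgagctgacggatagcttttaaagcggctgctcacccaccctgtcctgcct
Cd163: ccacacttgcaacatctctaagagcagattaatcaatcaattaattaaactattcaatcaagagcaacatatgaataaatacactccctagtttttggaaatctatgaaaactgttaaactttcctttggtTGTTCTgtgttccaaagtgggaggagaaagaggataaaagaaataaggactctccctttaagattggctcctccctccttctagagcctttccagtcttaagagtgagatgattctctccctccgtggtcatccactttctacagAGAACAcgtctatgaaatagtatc
Mrc1: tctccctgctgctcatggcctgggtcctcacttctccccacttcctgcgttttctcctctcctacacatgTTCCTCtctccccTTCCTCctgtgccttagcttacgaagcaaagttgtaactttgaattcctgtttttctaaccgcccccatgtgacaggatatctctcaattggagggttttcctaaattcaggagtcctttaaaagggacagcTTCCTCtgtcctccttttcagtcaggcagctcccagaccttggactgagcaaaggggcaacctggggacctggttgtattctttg
The PU.1 core, named for a transcription factor of myeloid cells, was found once in the window of *Marco*, once in that of *Stab1* and 3 times in that of *Mrc1*, and in 28.3% of all 32851 promoters in the table. The TGTTCT part of the glucocorticoid receptor element was found 2 times in the *Cd163* window and in 19.0% of all promoters, and the whole element was not searched. The ROR element was found once in the window of *Cd36* and in 16.3% of all promoters. The E-box, AP-1 and STAT letters, present in 7.2%, 7.8% and 8.3% of all promoters, were in none of these 5 windows. The same core was thus present in windows of genes that rose and of one that did not pass.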

How the data were processed

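RNA was measured in 16 mouse cortex samples by ribosomal RNA-depleted total RNA-seq. The deposited values are CPM, made by the authors. Their processing notes name bcl2fastq, DRAGEN 4.0.3-8 and GRCm38, and the settings of counting are not given in the sources used here. The table held 55774 rows, of which 287 repeated a gene. The columns sum to 1000000. Reads were estimated from the smallest step of each column, and 85.9% to 87.4% of values of up to 20 reads were whole within 0.1 read, so whole reads were not recovered for the table, no count model was fitted across genes, and 20251840 to 29112758 reads per sample is an estimate. Replicates were separate samples by their titles, and p-values measure the spread between them.

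Groups were compared with limma 3.58.1 (R 4.3.3) on log2(CPM + 0.5) with an intensity trend, for genes that reached 1 CPM in 3 or more samples. Pairwise comparisons used only the groups compared, and the interaction all 16 samples. In simulated data on the same 18859 genes, 200 of 200 changed genes were called in each pairwise comparison and 188 of 200 in the interaction. How often genes with the differences and spread of the receptors would be called was not tested. Between the times in LPS mice, *Msr1* at 0.98 ± 0.21 and *Marco* at 0.86 ± 0.40 log2 units (SE) were not called (limma adjusted p = 0.10 and 0.48). Floors were set at 3 reads. Intervals of log2 differences are limma's and measure the spread between mice. For *Msr1* alone, values divided by the step and rounded to whole reads gave a read ratio, whose interval covers counting error only. Exon lengths came from GENCODE M21. The receptors and gene lists were chosen with earlier results of these data known. Named were all 9 receptors, the 3 genes of each other list with the largest absolute change at ZT13, the 3 nearest genes of each receptor, and *Gfap*; other genes were named after their values were seen, and 1 gene of the monocyte list is not reported here. *Ccl21a*, whose symbol 2 gene identifiers share, was left out. Alternatives were other pseudocounts, filters, scalings and fits, a replicate block, and leaving out each mouse. Figures were drawn with matplotlib 3.10.9.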

Additional observations from a re-analysis of the deposited data

Results flagged for a closer look

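Over 18 sets of 5 LPS mice (9 receptors at 2 times), 2 held a mouse whose gap to its neighbour, as a share of the whole range, was above Dixon's 95% limit of 0.71, and chance flags about 1 in 20 sets. *Lyve1* in ZT1 LPS replicate 5 was at 1.59 CPM, with a ratio of 0.718, while the next mouse was at 1.03 CPM. *Marco* in ZT13 LPS replicate 4 was at 68.1 CPM, with a ratio of 0.781, while the other 4 mice were at 50.4 to 54.3 CPM. Without the first mouse the ZT1 response of *Lyve1* was still not called, and without the second the response of *Marco* at ZT13 was at least 377-fold. No cause was tested.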

How the results depend on the processing

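With each of the 10 alternative fits and with each mouse left out in turn, *Marco*, *Msr1*, *Stab1* and *Cd163* rose with LPS at both times (4 receptors called at ZT1, 4 to 5 at ZT13). Between ZT13 and ZT1 in LPS mice 2 receptors were called with a single fit of all 16 samples and 2 with sample quality weights (0 to 2 with a mouse left out), and in the interaction 1 with quality weights (0 to 1). The cause was not tested. The number of all genes called was 1605 for LPS at ZT1 with all genes with reads (against 3061) and 1767 to 3758 with a mouse left out, the smallest without ZT1 PBS replicate 1, 3 or 2. For ZT13 against ZT1 in LPS mice 4 genes were called, and 1 with all genes with reads, 122 with a single fit, 225 with quality weights, 0 without the trend and 0 to 345 with a mouse left out, the last without ZT1 LPS replicate 1. In PBS mice 98 became 65 with all genes with reads, 158 with at least 5 CPM, 199 with quantile normalization, 43 with a single fit, 3 without the trend and 12 to 87 with a mouse left out. For the interaction 30 became 12 with all genes with reads, 124 with quality weights, 11 without the trend and 7 to 104 with a mouse left out.

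Replicate numbers were not taken to pair the samples. Residuals of samples with the same number correlated at -0.20 to 0.33, but samples with unlike numbers were not compared, so this cannot decide whether the numbers pair samples. With a replicate block 57 genes were called between the times in PBS mice, and no call on a receptor changed. Differences near 0 that were not called changed sign. These were, in log2 units at ZT1, *Mrc1* (0.046 with quality weights, -0.24 to 0.093 with a mouse left out), *Scarb1* (0.021 with quality weights, -0.033 to 0.052) and *Colec12* (0.0095 with quality weights, 0.022 with the block, -0.080 to 0.053). Others were *Mrc1* at ZT13 (-0.076 with quantile normalization), *Lyve1* between times after LPS (-0.15 to 0.081), *Colec12* (0.0011 with quantile normalization, -0.072 to 0.062) and *Mrc1* (-0.23 to 0.10) between times in PBS mice, and the interaction of *Cd163* (-0.032 with a pseudocount of 0.1, -0.0096 with median-of-ratios factors, -0.068 with quantile normalization, -0.12 to 0.13). Median-of-ratios factors moved the median of all genes by at most 0.06. The 3 PBS mice per time and values under 1 CPM limit what can be said of *Lyve1* and *Cd36*.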
